A study of Homo sapiens with 9 samples.

Results

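The comparison set 3 libraries of cells treated with UNC1999, an inhibitor of the EZH1 and EZH2 methyltransferases, against 3 libraries treated with the solvent DMSO, both harvested 5 days into the exit from naive pluripotency. These are 6 of the 9 libraries of the series, chosen by their treatment, and 24182 of 56307 gene entries had enough reads for a test. All libraries came from HNES1, an embryo-derived human pluripotent line of wild-type genotype, so a single line carries every result. The cells are kept naive on mouse feeders in a medium called PXGL (inhibitors of MEK, protein kinase C and tankyrase plus LIF). For the experiment they were plated on Geltrex in PXGL, the compound was added a day later and a day before PXGL was taken away, and from that point (day 0) they grew in N2B27 with the tankyrase inhibitor XAV939 and daily renewed compound. The UNC1999 group received 1 µM and the DMSO group an equal volume of solvent. The remaining 3 libraries, from cells given 2.5 µM UNC6852 (a degrader, or PROTAC, of the EED subunit), entered the same model and served for 1 further comparison. The submitters state that the experiment was performed independently 3 times.

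Polycomb repressive complex 2 (PRC2) places methyl groups on lysine 27 of histone H3 through EZH2 or its relative EZH1, held together by EED and SUZ12, and trimethylated H3K27 marks genes that are kept off or poised. Naive human pluripotent cells resemble the epiblast before implantation and can still form trophoblast, whereas primed cells resemble the later epiblast and are closer to forming the germ layers. UNC1999 competes with the methyl donor in the catalytic pocket, and leaves the complex itself in place.

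The libraries held between 40877806 and 101073148 counted reads. Samples with the same replicate number deviated together (correlations of 0.187 to 0.443 between UNC1999 and DMSO libraries of the same number, against -0.315 to 0.054 for different numbers), so each result is given from a model by group alone and, where it changes a call or a count, from a paired model that adds the replicate number as a block. Values are CPM (reads of a gene relative to the TMM-scaled library total), the libraries of each group are listed from replicate 1 to 3, fold changes are log2 of UNC1999 over DMSO, and a gene is said to have risen or fallen where the Benjamini-Hochberg adjusted p of edgeR's quasi-likelihood test was under 0.05. The pluripotency factor POU5F1 stood at 687.5, 777 and 717.3 CPM in DMSO and at 683.5, 780.6 and 677.2 CPM in UNC1999, and the naive marker KLF17 at 32.56, 25.1 and 34.53 CPM against 35.38, 26.65 and 33.19 CPM. The libraries of both groups thus held transcripts of pluripotent cells, with naive markers still detected on day 5.

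Few genes passed the test by group alone and many passed it with the pairs kept. By group alone 77 genes (0.318% of those tested) rose and 97 (0.401%) fell, and with the replicate block 1705 (7.05%) rose and 1561 (6.46%) fell, of which 172 genes were called by both models. Large changes were mostly falls: in the paired model 231 genes fell at least 2-fold and 35 rose that far. The median log2 fold change of the called genes was -0.45 for falls and 0.25 for rises. These medians were closer in size within a class of expression level, as given below. Estimated variation between replicates (biological coefficient) was 13.2% in the former model and 6.09% in the latter. In 1686 of the 1705 risen and 1543 of the 1561 fallen genes all 3 pairs moved the same way. The paired test selects for such agreement, so these counts are not separate evidence. The UNC1999 and DMSO libraries did not overlap in 4211 genes (17.4%), among them 1104 of the risen and 1029 of the fallen genes. Scaling by library size alone turned the paired split to 1164 rises and 1915 falls, and the split by group alone to 41 and 81. Leaving out libraries lowered the paired counts to as few as 607 and 557 (without both libraries of number 2), and the counts by group alone to 0 and 0 (without both of number 3).

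**Figure D1:**
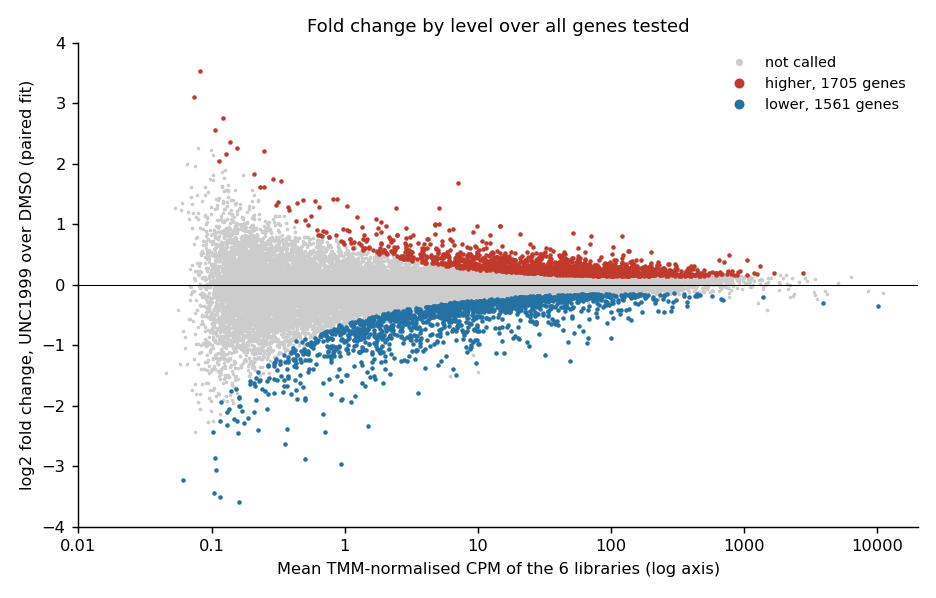
Each point is 1 of the 24182 genes tested, with its mean level over the 6 libraries in CPM on a log axis and its paired log2 fold change of UNC1999 over DMSO. Most called falls of at least 2-fold sit on the left, at low levels, while called rises crowd the right side with small fold changes.

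The direction of change went with how strongly a gene was expressed. Among the 7600 genes under 1 CPM on average, 202 fell and 41 rose. From 1 to 10 CPM 682 fell and 262 rose, from 10 to 100 CPM 594 fell and 1020 rose, and of the 2180 genes over 100 CPM 83 fell and 382 rose. The median fold change of called falls was -1.23 under 1 CPM and -0.21 over 100 CPM, and that of called rises 1.32 and 0.19. From 1 to 10 CPM the medians were -0.58 and 0.48, and from 10 to 100 CPM -0.27 and 0.25. The median SE was 0.425 under 1 CPM and 0.0515 over 100 CPM, so only large changes could be called at the lowest levels. By gene class, 1620 of 15890 protein-coding genes rose and 1228 fell, and of 4246 long non-coding genes 58 rose and 171 fell. Long non-coding genes took 5.53%, 5.30% and 5.07% of the counted reads in DMSO and 4.89%, 4.94% and 4.49% in UNC1999. The groups did not overlap in that share, at the smallest p that 3 against 3 allows (two-sided exact permutation p = 0.1). The share weights genes by their level, so a few with high levels can carry it, and which genes did was not tested.

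Fold changes also ran with the base composition of the transcripts. Over 15485 genes of at least 1 CPM with a GENCODE transcript, the quintile with the lowest GC content (27.8% to 41.3%) had 21.6% risen and 2.29% fallen members, and the quintile with the highest (58.6% to 76.8%) had 3.39% and 14.3%. The median log2 CPM difference went from 0.137 to -0.138 between those quintiles in pair 1, from 0.104 to -0.053 in pair 2 and from 0.0548 to -0.0187 in pair 3, so it was widest in pair 1. By genomic span the split ran from short to long genes, with 19.4% risen in the longest quintile and 3.91% in the shortest. A paired model with a GC offset for each library, chosen after seeing the data, called 1389 rises and 1354 falls, where the same genes without it gave 1771 and 1499. The part of GC content in the single results was not tested, and the count under that offset is given beside each main group of genes. Counts for a list also depended on the libraries, and ranges given for left-out libraries cover 9 paired fits, each without 1 of the 6 libraries or without the libraries of 1 number in all groups.

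**Figure D2:**
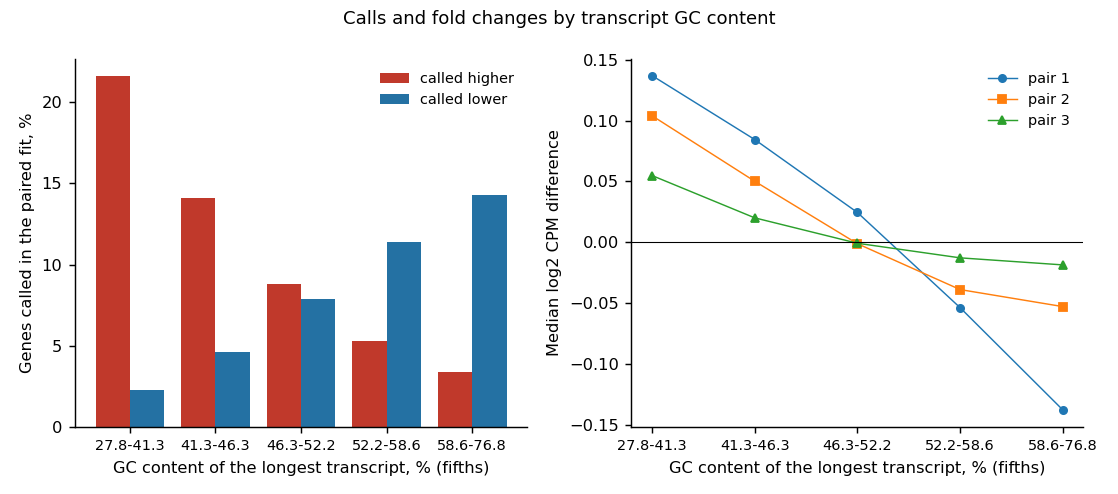
The left panel gives the percentage of genes called higher or lower in the paired model in each quintile of transcript GC content, and the right panel the median log2 CPM difference of UNC1999 minus DMSO in each of the 3 pairs. Calls pass from 21.6% higher in the lowest quintile to 14.3% lower in the highest, and all 3 lines fall, the line of pair 1 by the most.

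By group alone the largest rise among genes of at least 1 CPM was in ARGFX (chromosome 3, 121567949 to 121590622), a homeobox gene of the early embryo and naive cells. It was measured at 2.65, 3.33 and 4.22 CPM in the DMSO libraries and 8.32, 11.9 and 12.3 CPM in the UNC1999 libraries. The log2 fold change was 1.68 (SE 0.194, adjusted p = 0.00345) by group alone and 1.68 (SE 0.105, adjusted p = 7.22e-14) in the paired model, and every UNC1999 library lay above every DMSO library. DSG3 (chromosome 18, 31447741 to 31478702) encodes a desmosomal cadherin. Its mean went from 3.05 ± 0.635 to 7.25 ± 0.286 CPM (SD, n = 3 each), a paired change of 1.27 (SE 0.119, adjusted p = 7.16e-10). SMARCA2 (chromosome 9, 1980290 to 2193624) encodes BRM, an ATPase of the BAF chromatin remodelling complex that acts against Polycomb repression. Its level was 52.5, 49.6 and 52.9 CPM in the DMSO libraries and 97.1, 81.3 and 92.2 CPM in the UNC1999 libraries, with changes of 0.81 (SE 0.0764, adjusted p = 0.00124) by group alone and 0.80 (SE 0.0534, adjusted p = 2.1e-13) paired. DACT1, a scaffold of WNT signalling, stood at 97.5, 81.5 and 85.8 CPM in the DMSO libraries and 161, 149 and 152 CPM in the UNC1999 libraries, a paired change of 0.81 (SE 0.0504, adjusted p = 7.22e-14). The long non-coding gene LINC01500 lies over DACT1 and rose with it (0.82), and reads of the pair cannot be told apart here. HNF4A, a regulator of hepatic and endodermal genes, rose from 3.16 to 6.32 CPM (0.98, SE 0.119, adjusted p = 1.81e-07 paired, adjusted p = 0.0481 by group alone).

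Several further rises passed only with the pairs kept. ETS1, a transcription factor downstream of RAS and ERK, was at 11.5, 7.45 and 10.6 CPM in the DMSO libraries and 23.5, 15.1 and 19.2 CPM in the UNC1999 libraries, with a paired change of 0.97 (SE 0.0805, adjusted p = 4.44e-11) and an adjusted p of 0.083 by group alone. The proton and potassium pump ATP12A went from 37.0 to 67.6 CPM (0.85, SE 0.0613, adjusted p = 2.22e-12 paired, adjusted p = 0.0566 by group alone). CD53, a tetraspanin listed with the naive markers, went from 6.48 to 11.97 CPM (0.87, SE 0.0946, adjusted p = 1.82e-08 paired, adjusted p = 0.142 by group alone). The amino acid transporter SLC7A7 (0.96), the ephrin EFNA5 (1.00), the HMG-box gene BBX (0.62), CACHD1 (0.67) and the serotonin receptor HTR1D (0.85) rose in both models.

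**Figure D3:**
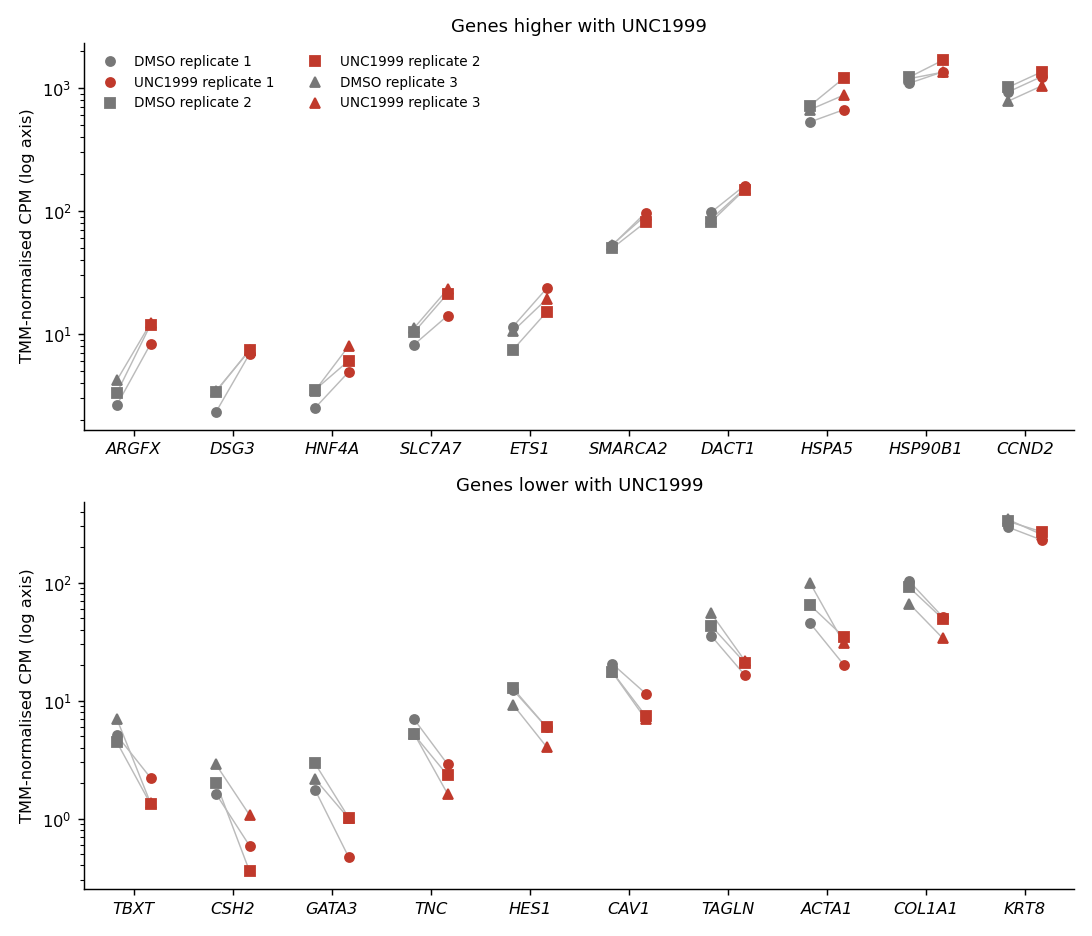
Levels of 20 genes in the 6 libraries, in TMM-normalised CPM on a log axis, with the symbol marking the replicate number and a line joining libraries of the same number. In every gene shown the line of each of the 3 pairs runs the same way, for example from 2.65 to 8.32 CPM in pair 1 of ARGFX. The genes were picked from those called in the paired model, which selects for such agreement.

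Among the falls TBXT (chromosome 6, 166157656 to 166168700), the T-box factor of the primitive streak, was at 5.07, 4.43 and 6.98 CPM in the DMSO libraries and 2.21, 1.33 and 1.35 CPM in the UNC1999 libraries. The change was -1.72 (SE 0.32, adjusted p = 0.0372) by group alone and -1.78 (SE 0.228, adjusted p = 0.000164) paired, with no overlap of the groups. HES1, the repressor that carries NOTCH signals, fell from 11.4 ± 1.90 to 5.29 ± 1.08 CPM (SD, n = 3 each), a paired change of -1.11 (SE 0.093, adjusted p = 4.52e-11). CSMD1, a large transmembrane protein, had 3.34, 2.09 and 2.10 CPM in the DMSO libraries and 0.818, 0.255 and 0.419 CPM in the UNC1999 libraries, a paired change of -2.33 (SE 0.216, adjusted p = 5.78e-10) and the largest fall by group alone among genes of at least 1 CPM. TNC, which encodes the matrix protein tenascin-C, fell from 5.79 to 2.27 CPM (-1.38), the ligand WNT6 from 2.90 to 1.13 CPM (-1.40), the carbonic anhydrase CA12 from 2.94 to 0.953 CPM (-1.62) and the metallothionein MT1M from 5.799 to 2.90 CPM (-1.02). The long non-coding gene LINC01108 fell from 21.7 to 9.95 CPM with a paired change of -1.13 (SE 0.0827, adjusted p = 2.22e-12) and an adjusted p of 0.348 by group alone, so its call rested on the pairs. LINC01356 went from 87.5 to 47.3 CPM and passed both models (-0.89, SE 0.0765, adjusted p = 0.000805 by group alone). TTN and CCDC141 share bases, as do PLXNB3 and SRPK3, and their falls (-1.39, -1.49, -0.90 and -0.89) cannot be assigned to 1 gene of each pair. CCDC141 lost its paired call without DMSO replicate 1 (adjusted p = 0.0716), and NPPB, at 8.996 to 3.28 CPM, was called by group alone (adjusted p = 0.0498) but not with the pairs (adjusted p = 0.0544).

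Among genes with high levels the fold changes were small. Of the risen genes with an absolute change of at least 0.3, the highest levels were those of HSP90B1, CCND2, HSPA5, GFPT1, VCAN, VAT1, NFE2L1 and PHGDH. GFPT1, which opens the hexosamine pathway for protein glycosylation, went from 620.2 to 804 CPM (0.37, SE 0.053, adjusted p = 3.73e-06), and VCAN, the matrix proteoglycan versican, from 557 to 739 CPM (0.41, SE 0.0522, adjusted p = 5.78e-07). Of the fallen genes the highest were MALAT1, SLC2A1, KRT8, AHNAK, PNP, DMD, COL1A2 and SGK1. MALAT1, a nuclear long non-coding RNA, was at 11790, 11780 and 10430 CPM in the DMSO libraries and 7947, 10820 and 8320 CPM in the UNC1999 libraries, with a paired change of -0.34 (SE 0.0763, adjusted p = 0.00263) that was lost without DMSO replicate 1 (adjusted p = 0.124). AHNAK, a scaffold under the cell membrane, went from 285 to 211 CPM (-0.44), and the dystrophin gene DMD from 199 to 145 CPM (-0.46). PNP, an enzyme of purine salvage, fell from 259.9 to 192 CPM and was the only one of these 16 genes called by group alone (adjusted p = 0.0468).

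**Figure D4:**
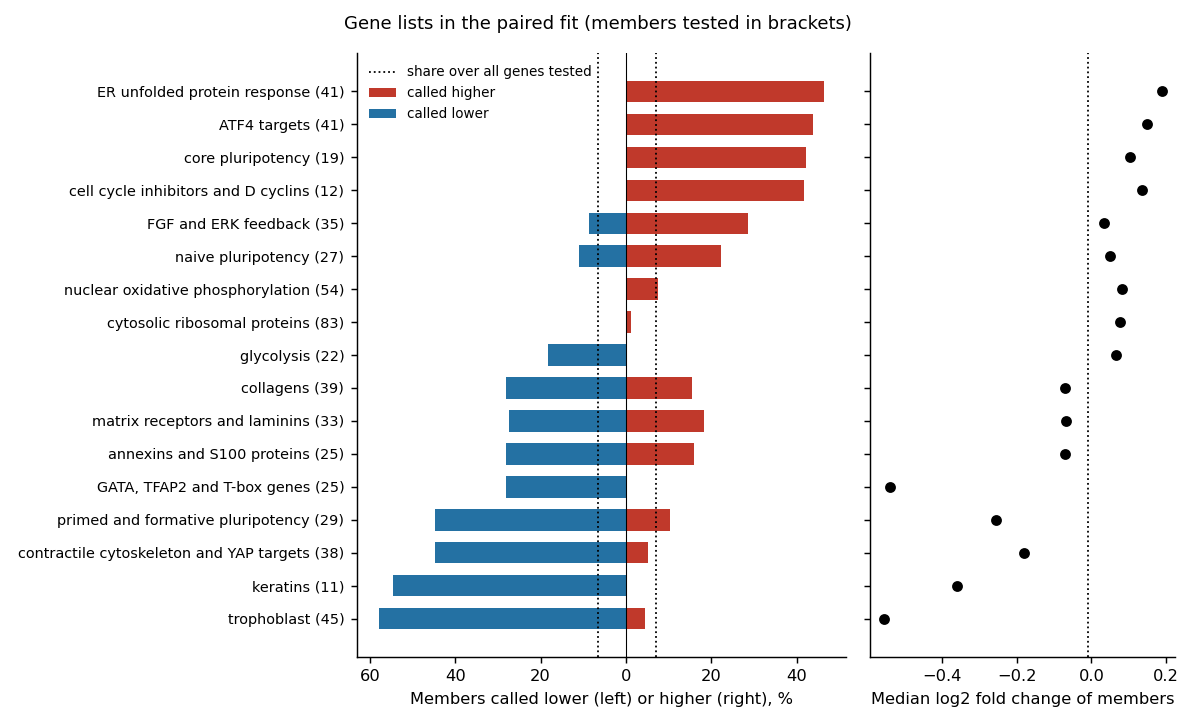
Bars give the percentage of tested members called lower (to the left) or higher (to the right) in the paired model for 17 gene lists, with dotted lines at 6.46% and 7.05%, the shares over all genes. Points on the right give each list's median log2 fold change beside the median of all genes, -0.010.

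Most tested trophoblast genes fell with UNC1999. Of 45 tested members of the list, 26 fell (57.8%) and 2 rose (4.44%) in the paired model, against 6.46% and 7.05% over all genes. By group alone 4 fell. The paired median was -0.56 against -0.010 over all genes. The master regulator GATA3 (chromosome 10, 8045378 to 8075198) was at 1.76, 2.94 and 2.17 CPM in the DMSO libraries and 0.471, 1.02 and 1.00 CPM in the UNC1999 libraries, with changes of -1.50 (SE 0.308, adjusted p = 0.0465) by group alone and -1.52 (SE 0.201, adjusted p = 8.67e-07) paired. All 3 UNC1999 libraries lay below all DMSO libraries. Its partner GATA2 fell from 4.70 to 2.24 CPM (-1.08, SE 0.131, adjusted p = 1.68e-07) and TFAP2A from 0.807 to 0.258 CPM (-1.44, SE 0.318, adjusted p = 0.00146). GCM1, which drives formation of the syncytium, had a change of -0.90, and the fusion proteins derived from retroviral envelopes fell too, with -1.89 for ERVFRD-1 (1.46 to 0.451 CPM), -0.90 for ERVW-1 and -0.70 for ERVV-1. Hormone genes of the placenta followed, with CSH2 from 2.17 to 0.671 CPM (-1.68, SE 0.22, adjusted p = 8.55e-07), CSH1 from 3.92 to 1.65 CPM and CGB3, CGB7 and CGB8 changed by -1.81, -0.86 and -1.51. CSH1 and CSH2 are near-identical copies, as are the CGB genes, so reads may be split between copies and single values are uncertain. Read sharing was not checked for the envelope genes. ABCG2, an efflux pump, was the only fallen member with a mean level over 100 CPM and a call in both models, at 118, 137 and 114 CPM in the DMSO libraries and 88.8, 89.0 and 75.0 CPM in the UNC1999 libraries (-0.55, SE 0.0572, adjusted p = 1.53e-08 paired). PEG10 (119 to 145 CPM), a gene derived from a retrotransposon, was among the 2 risen members. In bulk RNA, fewer trophoblast cells and less of this RNA per cell cannot be told apart. The GC offset left 3 higher and 24 lower, and the falls numbered 14 without both libraries of number 2 and 17 without those of number 3. The summed level of the list was 1566 to 1837 CPM in DMSO and 1464 to 1726 CPM in UNC1999, and 10 tested members were under 1 CPM.

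**Figure D5:**
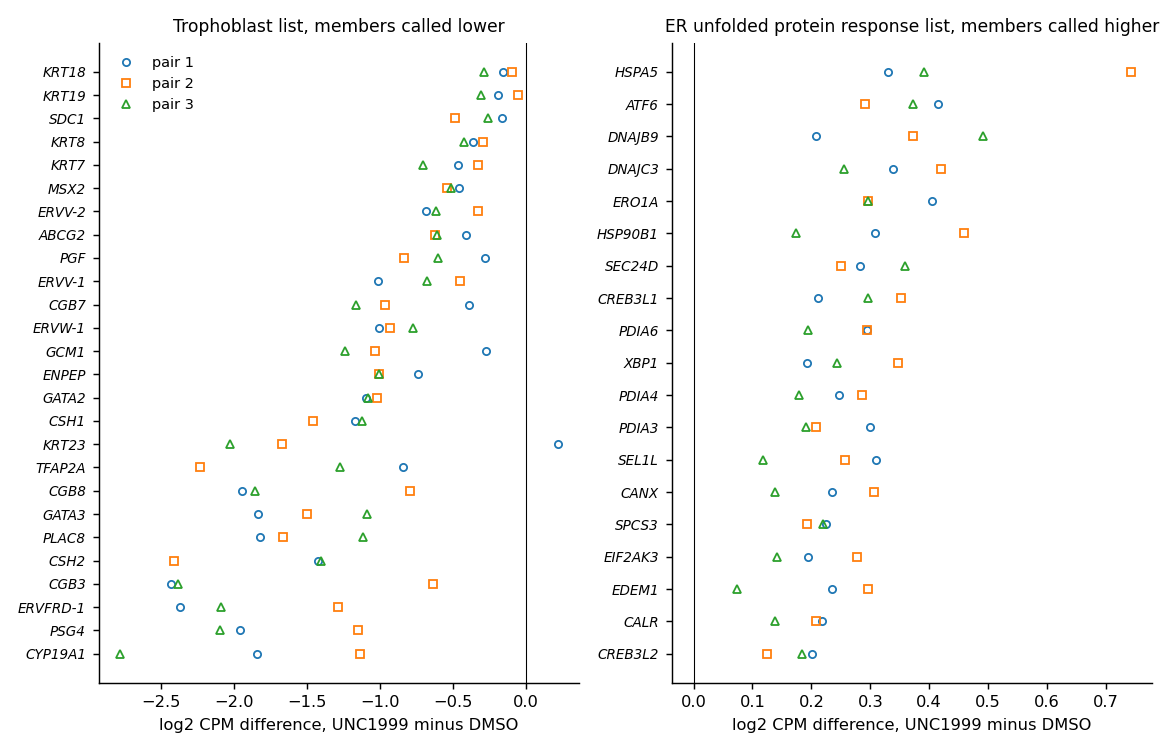
The log2 CPM difference of UNC1999 minus DMSO in each of the 3 pairs for the members called lower of the trophoblast list (left) and the members called higher of the unfolded protein response list (right). All trophoblast points but 1 pair of KRT23 lie left of 0, and all points of the other list lie right of 0, where HSPA5 in pair 2 is the farthest out. Only called members are shown, and the paired test selects those whose pairs agree.

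The GATA, TFAP2 and T-box families and the keratins held falls and no rises. Of 25 tested GATA, TFAP2 and T-box genes, 7 fell (28%) and none rose in the paired model, against 6.46% and 7.05% over all genes. The median was -0.54, and the GC offset gave 0 higher and 6 lower. Only 4 fell without UNC1999 replicate 2 or without both libraries of number 2. Besides TBXT, GATA3, GATA2 and TFAP2A these were EOMES (0.886 to 0.402 CPM, -1.15), TBX3 (4.73 to 3.04 CPM, -0.62) and TFAP2E (2.34 to 1.61 CPM, -0.55), and 12 of the 25 were under 1 CPM. Of 11 keratins, which form the intermediate filaments of epithelia, 6 fell (54.5%) and none rose. KRT8, a keratin of simple epithelia, was at 295, 330.2 and 343 CPM in the DMSO libraries and 229.5, 269.6 and 255 CPM in the UNC1999 libraries, a change of -0.36 (SE 0.0541, adjusted p = 8.73e-06). KRT7 went from 10.7 to 7.501 CPM (-0.51), KRT18 from 456 to 403 CPM (-0.18) and KRT19 from 35.5 to 31.4 CPM (-0.18), and KRT8 and KRT18 lie side by side with annotated overlap. The falls among keratins numbered 4 under the GC offset and 2 without both libraries of number 2 or of number 3. Of 116 homeobox genes outside the HOX clusters 19 fell and 11 rose (9.48% and 16.4% for rises and falls, against 7.05% and 6.46% over all genes). The fits with left-out libraries gave 4 to 11 rises and 7 to 18 falls, the fewest falls without both of number 2.

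More genes of the primed state fell than rose, and some core pluripotency genes rose. Of 29 tested primed and formative genes, 13 fell (44.8%) and 3 rose (10.3%) in the paired model (median -0.26), against 6.46% and 7.05% over all genes. The GC offset gave 3 higher and 12 lower, and 7 fell without both libraries of number 2. ZIC2, a zinc finger factor that marks cells leaving the naive state, was at 54.4, 49.1 and 50.6 CPM in the DMSO libraries and 37.1, 33.3 and 35.6 CPM in the UNC1999 libraries, with changes of -0.54 (SE 0.0885, adjusted p = 0.0197) by group alone and -0.54 (SE 0.0577, adjusted p = 1.22e-08) paired. The groups did not overlap. DUSP4, a phosphatase that dampens ERK, fell from 12.8 to 6.78 CPM (-0.91, SE 0.111, adjusted p = 2.2e-06), SALL3 from 33.1 to 21.8 CPM (-0.61), ZIC5 from 6.37 to 3.79 CPM (-0.75), MYC from 45.7 to 34.5 CPM (-0.42) and SALL2 from 111 to 92.3 CPM (-0.26). The 3 members that rose were PTPRZ1 (87.6 to 109.8 CPM), GPC4 (170.0 to 206 CPM) and THY1 (188 to 209.9 CPM), of which THY1 is a surface marker of primed cells.

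Of 19 core pluripotency genes 8 rose (42.1%) and none fell with the pairs kept (median 0.10). Over all genes 7.05% rose and 6.46% fell, and of genes over 100 CPM 17.5% and 3.81%. None of the 19 passed by group alone, and 3 rose without UNC1999 replicate 2 or without both libraries of that number. The pluripotency markers POU5F1 (-0.028), NANOG (0.084), DPPA4 (0.10) and SALL4 (-0.044) were not called in the paired model. SOX2 was at 100.6, 92.6 and 104 CPM in the DMSO libraries and 124, 105 and 130.5 CPM in the UNC1999 libraries (0.27, SE 0.0546, adjusted p = 0.000481 paired), and SOX2-OT lies over it. PRDM14, a repressor of differentiation genes in pluripotent cells, went from 80.8 to 102 CPM (0.34, SE 0.0516, adjusted p = 1.13e-05), GDF3 from 346 to 416 CPM (0.26) and LIN28A from 1563 to 1783 CPM (0.19). Of 27 naive genes 6 rose (22.2%) and 3 fell (11.1%), against 7.05% and 6.46% over all genes. With library size scaling 4 rose and 6 fell, so the balance of this list turned with the scaling. FGF4, a ligand made by pluripotent cells, was at 160.4, 162 and 167 CPM in the DMSO libraries and 241, 228 and 242 CPM in the UNC1999 libraries and rose in both models (0.54, SE 0.0638, adjusted p = 0.00363 by group alone). KLF5 rose from 49.2 to 65.2 CPM (0.40, SE 0.0559, adjusted p = 2.79e-06), and ESRRB, whose product binds naive enhancers, fell from 14.7 to 9.76 CPM (-0.57, SE 0.0859, adjusted p = 8.45e-06). ARGFX, CD53, FGF4, KLF5, VENTX and DPPA5 made up the rises, and TBX3, ESRRB and KHDC1L the falls.

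Germ layer genes moved in both directions and mostly at low levels. Of 25 primitive streak and mesoderm genes 6 fell (24%) and 4 rose (16%), against 6.46% and 7.05% over all genes. There were 1 to 3 rises and 3 to 5 falls when libraries were left out. The falls were fewest without UNC1999 replicate 1 and the rises without both of number 3. The falls held TBXT, EOMES, GSC (1.40 to 0.728 CPM, -1.002) and NKX2-5 (8.97 to 4.80 CPM, -0.92, SE 0.103, adjusted p = 4.08e-08), a cardiac homeobox gene, and TWIST1 rose from 1.77 to 3.16 CPM (0.83). Of 24 endoderm genes 7 rose (29.2%) and 4 fell (16.7%), and without UNC1999 replicate 2 3 rose and none fell. The counts were 3 and 2 without UNC1999 replicate 1, and 3 and 3 without DMSO replicate 1. The full model had HNF4A, DAB2 (6.03 to 8.73 CPM), LAMB1 (79.4 to 102 CPM) and FN1 (194 to 228 CPM) among the rises and APOA1 (0.773 to 0.230 CPM) among the falls. Of 28 neural genes 6 fell (21.4%) and 2 rose (7.14%), and 14 of the 28 were under 1 CPM. The falls numbered 3 under the GC offset, 2 without UNC1999 replicate 2, DMSO replicate 2 or DMSO replicate 3, 1 without UNC1999 replicate 1 and 0 without both of number 2. Of 22 amnion genes 6 fell (27.3%) and 3 rose (13.6%), with 4 and 1 without both libraries of number 2. In it BMP4 rose from 9.501 to 15.3 CPM (0.68, SE 0.0916, adjusted p = 1.63e-06), whereas WNT6, TNC, HOXD1 (2.84 to 1.46 CPM), IGFBP3 (2.71 to 1.48 CPM), ID3 (36.5 to 25.7 CPM) and KCNMA1 (11.4 to 8.47 CPM) fell.

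Ligands, receptors and feedback genes of the signalling pathways moved in both directions, and most of these lists kept fewer calls when libraries were left out. Of 35 genes of FGF and ERK signalling 10 rose (28.6%) and 3 fell (8.57%), against 7.05% and 6.46% over all genes. The FGF genes FGF4, FGF13 (36.2 to 50.2 CPM, 0.47), FGF19 (23.6 to 31.7 CPM, 0.43) and FGF12 (1.92 to 2.88 CPM) rose. So did the receptor FGFR4 (342 to 392.3 CPM) and the antagonists SPRED1, SPRED2 and DUSP7 (0.17, 0.21 and 0.22). DUSP4, MYC and FGF2 (147 to 129 CPM) fell. The rises numbered 4 without both libraries of number 2 and 5 without DMSO replicate 3. Of 27 TGF-beta and NODAL genes 6 rose (22.2%) and 4 fell (14.8%). The fits with left-out libraries gave 3 to 8 rises and 2 to 5 falls, the fewest without both of number 2. NODAL (45.8 to 54.3 CPM), LEFTY2 (3.08 to 4.49 CPM) and LTBP1 (17.7 to 24.2 CPM) were up, and THBS1 (9.95 to 5.70 CPM) and LTBP2 (9.94 to 6.49 CPM) were down. In the BMP list of 28, BMP4 and the receptor ACVR1 (31.0 to 40.1 CPM) rose, and the antagonist GREM1 (1.87 to 0.538 CPM, -1.85, SE 0.28, adjusted p = 6.05e-05), the ligand GDF7 and the target ID3 fell. This list had 5 rises (17.9%) and 4 falls (14.3%) in all, and 2 and 3 without UNC1999 replicate 2. The WNT list of 45 had 6 of each (13.3% and 13.3%), but the GC offset gave 8 higher and 4 lower. Only 2 fell without UNC1999 replicate 2 or 3, DMSO replicate 2 or both libraries of number 2. In this list 1 fell without both of number 3. Among its calls were LGR4 (115 to 145 CPM), WNT5B (37.8 to 49.7 CPM) and FZD6 (12.5 to 16.1 CPM) up and WNT6 and FZD2 (1.38 to 0.802 CPM) down.

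Of 32 NOTCH and Hedgehog genes 3 rose and 2 fell (9.38% and 6.25%, near the shares over all genes). The balance turned with the scaling, to 2 higher and 5 lower with library size scaling and to 5 higher and 1 lower under the GC offset. The ligand JAG1 rose from 60.1 to 79.4 CPM in both models (0.40, SE 0.052, adjusted p = 6.59e-07 paired) while the target HES1 fell. Among 61 axon guidance genes 9 rose and 11 fell (14.8% and 18%), with 5 higher and 12 lower by library size scaling, 4 and 7 without replicate 3 of either group, and 3 and 6 without both of number 3. The rises held EFNA5, SEMA3A (11.9 to 17.5 CPM) and ROBO1 (18.0 to 25.0 CPM), and the falls the receptors NRP2 (8.09 to 4.81 CPM), PLXNA2 (11.3 to 7.95 CPM) and EPHA2 (61.9 to 50.8 CPM). Of 106 potassium, sodium and calcium channel genes 9 rose (8.49%) and 16 fell (15.1%). The falls numbered 10 under the GC offset and 4 without both libraries of number 2. CACNA2D1 (43.4 to 57.3 CPM) and KCNMB4 (10.5 to 15.2 CPM) rose in both models.

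Genes of the contractile cytoskeleton, many of them targets of serum response factor and YAP, fell more often than they rose. Of 38 tested members 17 fell (44.7%) and 2 rose (5.26%) in the paired model (median -0.18), against 6.46% and 7.05% over all genes. By group alone 5 fell. The GC offset gave 4 higher and 16 lower, and library size scaling 2 rises and 21 falls. TAGLN (chromosome 11, 117199370 to 117207464), an actin-binding protein of smooth muscle, was at 35.5, 43.1 and 55.0 CPM in the DMSO libraries and 16.5, 21.0 and 21.9 CPM in the UNC1999 libraries. Its change was -1.17 (SE 0.155, adjusted p = 0.00668) by group alone and -1.17 (SE 0.079, adjusted p = 2.49e-10) paired, and PCSK7 overlaps it on the other strand. CAV1, the coat protein of caveolae, was at 20.6, 17.6 and 17.6 CPM in the DMSO libraries and 11.5, 7.42 and 6.94 CPM in the UNC1999 libraries, with -1.10 (SE 0.205, adjusted p = 0.0372) by group alone and -1.13 (SE 0.0892, adjusted p = 2.46e-11) paired. In both genes the groups were apart and each pair fell. The cardiac actin ACTC1 went from 7.45 to 3.08 CPM (-1.25, SE 0.156, adjusted p = 1.67e-05), CAV2 from 10.0 to 5.42 CPM (-0.90), AMOTL2 from 114 to 73.8 CPM (-0.63), CCN1 from 60.1 to 41.2 CPM (-0.54), TPM1 from 136 to 103 CPM (-0.41) and VCL, which anchors actin at adhesions, from 268 to 227 CPM (-0.24). CNN3 (100.2 to 114 CPM) and WWTR1 (42.1 to 49.5 CPM), the partner of YAP also called TAZ, were the 2 rises. Markers of fibroblasts summed to 1668 to 1775 CPM in DMSO and 1583 to 1696 CPM in UNC1999. Of 18 tested 6 fell (33.3%) and 4 rose (22.2%), and 3 of the 18 were under 1 CPM. The part of these markers in the falls of contractile genes was not tested.

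ACTA1, the skeletal muscle actin, was at 45.3, 64.5 and 99.3 CPM in the DMSO libraries and 20.1, 34.7 and 30.8 CPM in the UNC1999 libraries. The groups did not overlap, with a paired change of -1.26 (SE 0.191, adjusted p = 0.0204) and an adjusted p of 0.0739 by group alone, and the paired call was lost without replicate 1 of DMSO (0.0645), replicate 2 of DMSO (0.0561), replicate 1 of UNC1999 (0.0982) or both of number 1 (0.154, all adjusted p). Its promoter is printed because ACTA1 had the larger fall of the 2 fallen members whose RefSeq promoter holds a CArG box, the letters bound by serum response factor, shown in capitals. The 250 bases before the start are chr1:229434095-229434344 on the minus strand of GRCh38.p14, given 5′ to 3′, and the box starts 97 bases before the start.
ACTA1: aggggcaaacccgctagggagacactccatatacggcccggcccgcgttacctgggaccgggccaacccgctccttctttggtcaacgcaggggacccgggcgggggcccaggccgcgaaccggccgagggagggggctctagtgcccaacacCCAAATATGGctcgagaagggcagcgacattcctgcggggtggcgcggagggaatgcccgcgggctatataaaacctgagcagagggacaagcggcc
The box was searched on both strands in 300 bases around each start, and 454 of 35116 promoters (1.29%) held it. Of 16 contractile members with an entry 4 did, ACTA1 and ACTG2, which fell, and CNN2 and FLNA, which were not called. Over all tested genes with an entry, 5 of 687 fallen (0.728%), 11 of 898 risen (1.22%) and 83 of 8691 uncalled genes (0.955%) held it. The shorter letters GGAATG, known to be bound by the TEAD partners of YAP, were in 4928 of the 35116 promoters. They were in 10 of the 16 members, 3 of them among the 6 that fell. Of all fallen, risen and uncalled genes with an entry, 12.2%, 11% and 10.8% held them. The list was chosen to hold such targets, and whether either set of letters bears on the falls was not tested.

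Matrix genes moved in both directions. Of 39 collagens 11 fell (28.2%) and 6 rose (15.4%) in the paired model, against 6.46% and 7.05% over all genes. Under the GC offset 8 higher and 7 lower were called, and 3 of each without both libraries of number 2. COL1A1, a chain of fibrillar collagen I, was at 103, 91.4 and 66.4 CPM in the DMSO libraries and 51.1, 49.3 and 33.8 CPM in the UNC1999 libraries. The change was -0.96 (SE 0.173, adjusted p = 0.0372) by group alone and -0.96 (SE 0.0601, adjusted p = 1.3e-13) paired, and no libraries overlapped. COL1A2, the partner chain, fell from 177.5 to 142 CPM (-0.32, SE 0.058, adjusted p = 0.000167), and COL7A1, of the anchoring fibrils under epithelia, from 129 to 69.4 CPM (-0.89, SE 0.0759, adjusted p = 6.3e-07). COL6A1 rose from 110.1 to 162 CPM in both models (0.56, SE 0.0527, adjusted p = 7.16e-10 paired). Of 33 laminins and integrins 9 fell (27.3%) and 6 rose (18.2%), and 5 and 2 without both libraries of number 2. Here LAMB3 (32.9 to 21.5 CPM), LAMA3 (7.05 to 5.35 CPM) and ITGB4 (11.6 to 8.57 CPM), parts of the epithelial anchoring complex, fell and LAMA1 (123.2 to 138 CPM), LAMB1 and ITGB1 (216 to 244 CPM) rose. MMP2, a secreted protease of the matrix, fell from 49.1 to 31.1 CPM (-0.66). Of 25 annexin, S100 and calpain genes 7 fell (28%) and 4 rose (16%). S100A16 (7.15 to 3.76 CPM), S100A6 (4.23 to 2.40 CPM), CAPN2 (20.5 to 12.99 CPM) and ANXA3 (32.3 to 20.8 CPM) were among the falls. S100A11 (126 to 160.5 CPM) and ANXA5 (128 to 158 CPM) were among the rises. In 49 cadherin and junction genes 7 rose (14.3%) and 5 fell (10.2%). There were 4 to 8 rises and 2 to 5 falls when libraries were left out, and 6 higher and 7 lower under the GC offset. The desmosomal genes DSG3, DSC2 (29.9 to 43.7 CPM) and DSG2 (174 to 201 CPM) were among the rises.

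Many genes of the unfolded protein response of the endoplasmic reticulum rose. Of 41 tested members 19 rose (46.3%) and none fell in the paired model (median 0.19), against 7.05% and 6.46% over all genes. Of genes over 100 CPM 17.5% rose and 3.81% fell. By group alone 1 member, ERO1A, rose. The GC offset gave 22 higher and 0 lower, and 8 rose without both libraries of number 2. HSPA5, the chaperone BiP of the endoplasmic reticulum, was at 529, 718 and 666 CPM in the DMSO libraries and 665, 1201 and 874 CPM in the UNC1999 libraries. Replicate 1 of UNC1999 lay below replicate 2 of DMSO and near replicate 3, so the groups overlapped, and the change was 0.52 (SE 0.205, adjusted p = 0.32) by group alone and 0.49 (SE 0.0605, adjusted p = 6.01e-07) paired. HSP90B1, its partner GRP94, was at 1091, 1221 and 1190 CPM in the DMSO libraries and 1351, 1678 and 1342 CPM in the UNC1999 libraries with no overlap (0.31, SE 0.0564, adjusted p = 0.000115 paired, adjusted p = 0.167 by group alone). The sensors ATF6 (39.3 to 50.5 CPM, 0.36, SE 0.0564, adjusted p = 1.6e-05) and EIF2AK3 (62.6 to 72.3 CPM, 0.20) rose, as did the transcription factor XBP1 (144 to 173 CPM, 0.26), the protein disulfide isomerases PDIA3, PDIA4 and PDIA6 (0.23, 0.24 and 0.26), the lectin chaperones CALR and CANX (0.19 and 0.23), and DNAJC3 and DNAJB9 (0.34 and 0.35), co-chaperones of HSPA5.

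The promoters of HSPA5 and HSP90B1 are printed because both genes rose, are among the 8 with the highest levels of the risen genes that changed by at least 0.3, and hold the endoplasmic reticulum stress element, through which ATF6 and XBP1 are known to act. The element was searched as CCAAT and CCACG with 9 bases between them, on both strands, and is in capitals, and each sequence is the 250 bases before the start in RefSeq's GRCh38.p14, 5′ to 3′ in the direction of the gene. HSPA5 is chr9:125241344-125241593 on the minus strand, and HSP90B1 is chr12:103930160-103930409 on the plus strand.
HSPA5: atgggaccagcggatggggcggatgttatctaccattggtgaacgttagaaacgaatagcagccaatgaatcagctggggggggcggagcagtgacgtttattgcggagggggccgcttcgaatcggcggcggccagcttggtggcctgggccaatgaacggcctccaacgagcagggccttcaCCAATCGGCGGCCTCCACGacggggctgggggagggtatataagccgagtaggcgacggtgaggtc
HSP90B1: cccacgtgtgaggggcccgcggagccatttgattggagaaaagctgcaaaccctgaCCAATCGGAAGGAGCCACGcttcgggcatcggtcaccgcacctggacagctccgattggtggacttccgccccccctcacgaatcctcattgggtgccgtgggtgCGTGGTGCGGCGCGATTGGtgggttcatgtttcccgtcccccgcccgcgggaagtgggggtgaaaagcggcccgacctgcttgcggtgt
The element of HSPA5 starts 66 bases before the start, and those of HSP90B1 lie 194 and 89 bases before it, the latter on the opposite strand. In the 300-base window, 27 of 35116 promoters (0.0769%) held the element. Of 31 members of the list with an entry 5 did, HSPA5, HSP90B1 and CALR, which rose, and ERO1B and CRELD2, which were not called.

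Many targets of ATF4, the transcription factor of the amino acid response, rose as well. Of 41 tested members 18 rose (43.9%) and none fell in the paired model (median 0.15), against 7.05% and 6.46% over all genes. By group alone 1 rose. The GC offset gave 21 higher and 0 lower, and 9 rose without both libraries of number 2. PSAT1, of serine synthesis, was at 252, 292 and 259 CPM in the DMSO libraries and 322, 362 and 336 CPM in the UNC1999 libraries, a paired change of 0.35 (SE 0.0537, adjusted p = 1.4e-05). ASNS, which makes asparagine, went from 133.5 to 177 CPM (0.40, SE 0.0531, adjusted p = 8.91e-07), PHGDH, the first enzyme of serine synthesis, from 274 to 339 CPM (0.31, SE 0.0507, adjusted p = 3.71e-05), and SLC7A11, the cystine importer, from 24.0 to 34.2 CPM (0.51, SE 0.0731, adjusted p = 7.01e-06). TRIB3 rose from 50.9 to 76.4 CPM (0.54) and ATF4 itself from 349 to 393 CPM (0.16). ALDH1L2, a mitochondrial folate enzyme, was the member called in both models (35.8 to 50.6 CPM, adjusted p = 0.03 by group alone). The amino acid response element, searched as TGATGCAAT, was in 83 of 35116 promoters (0.236%) and in 1 of 18 members with an entry, FGF21, which was not called. Of 22 aminoacyl-tRNA synthetases, which charge tRNAs, 5 rose (22.7%) and 1 fell (4.55%), against 7.05% and 6.46% over all genes. The rises numbered 10 under the GC offset, 3 with library size scaling, 2 without DMSO replicate 2 or 3, and 1 without UNC1999 replicate 2 or without both of number 2, so this count was not stable.

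Metabolic lists differed in the share of members called, against 7.05% risen and 6.46% fallen over all genes. Of genes from 10 to 100 CPM 12.1% rose and 7.04% fell, and of those over 100 CPM 17.5% and 3.81%. Of 22 glycolysis genes 4 fell (18.2%) and none rose. The fold change was negative in 6 of the 22 and positive in 16, with a median of 0.067 against -0.010 over all genes. The GC offset gave 3 higher and 3 lower, and 2 fell without UNC1999 replicate 1 or 3 or DMSO replicate 3. The glucose transporter SLC2A1 was at 399, 447 and 416 CPM in the DMSO libraries and 319, 364 and 304 CPM in the UNC1999 libraries (-0.36, SE 0.0521, adjusted p = 5.1e-06), and the hexokinase HK1 fell from 412 to 338 CPM (-0.28, SE 0.0526, adjusted p = 0.000205). In the hypoxia list of 26, 6 rose (23.1%), among them the collagen hydroxylases P4HA1 (69.8 to 93.3 CPM) and P4HA2 (45.1 to 55.0 CPM), and 4 fell (15.4%), including CA12 and SLC2A1. Only 2 fell without UNC1999 replicate 1 or 3 or DMSO replicate 3. Of 26 cholesterol synthesis genes 5 rose (19.2%), MSMO1, STARD4, INSIG1, CYP51A1 and SQLE, and none rose without UNC1999 replicate 2 or without both libraries of number 2. Of 54 nuclear genes of oxidative phosphorylation, which summed to 6389 to 7380 CPM in DMSO, 4 rose (7.41%). That was near the share over all genes and under the shares of both level classes above. Of 83 cytosolic ribosomal protein genes 1 rose (1.2%). Of 13 mitochondrially encoded mRNAs none was called, although 12 had a negative fold change (median -0.16). In this list 7 fell without UNC1999 replicate 3 and 5 without both libraries of number 3. IMPDH1, of guanine nucleotide synthesis, fell from 20.4 to 12.6 CPM in both models (-0.70, SE 0.0748, adjusted p = 1.29e-08 paired), and GMPS, the next enzyme of that branch, rose from 79.7 to 101.1 CPM (0.34).

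Of 12 cell cycle inhibitors and D cyclins 5 rose (41.7%) and none fell, against 7.05% and 6.46% over all genes. The rises numbered 6 under the GC offset and 3 without both libraries of number 2. CCND2, a D-type cyclin, was at 927, 1012 and 780.3 CPM in the DMSO libraries and 1238, 1352 and 1040 CPM in the UNC1999 libraries. The groups did not overlap, and the change was 0.42 (SE 0.108, adjusted p = 0.105) by group alone and 0.42 (SE 0.0587, adjusted p = 3.06e-06) paired. CCND1 (176 to 219 CPM, 0.31), their kinase CDK6 (18.96 to 27.5 CPM, 0.54), and the inhibitors CDKN1B (109.6 to 129.9 CPM) and CDKN1C (23.8 to 31.5 CPM) made up the rest. Of 35 imprinted genes 5 fell (14.3%) and 3 rose (8.57%), with 1 of each without both libraries of number 2. The long non-coding H19 went from 93.0 to 64.1 CPM (-0.53, SE 0.0571, adjusted p = 1.9e-08), MEG3 from 4283 to 3488 CPM (-0.30), and the retrotransposon-derived PEG10 from 119 to 145 CPM (0.29, SE 0.053, adjusted p = 0.000129).

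Differences in the transcripts of the targeted complex were small, and an inhibitor of the enzyme is not a check on its transcript. EZH2 was at 47.4, 46.6 and 40.1 CPM in the DMSO libraries and 50.6, 60.4 and 48.6 CPM in the UNC1999 libraries. The change was 0.25 (SE 0.0967, adjusted p = 0.302) by group alone and 0.24 (SE 0.0631, adjusted p = 0.00743) paired, and the GC offset (0.18, adjusted p = 0.0674) or leaving out UNC1999 replicate 2 (0.18, adjusted p = 0.167), DMSO replicate 2 (0.21, adjusted p = 0.0709) or DMSO replicate 3 (0.19, adjusted p = 0.11) took the call away. EZH1 (64.95 to 63.8 CPM, -0.034, SE 0.0619, adjusted p = 0.794), EED (11.7 to 12.1 CPM, 0.055, SE 0.0836, adjusted p = 0.746) and SUZ12 (87.3 to 94.1 CPM, 0.11, SE 0.0529, adjusted p = 0.197) were not called. Over all genes 7.05% rose and 6.46% fell. Of 13 tested PRC2 genes 2 rose (15.4%) and 1, the accessory subunit PHF19 (30.6 to 26.3 CPM), fell (7.69%). None of the 13 was called under the GC offset or without UNC1999 replicate 2 or DMSO replicate 2. Of 25 PRC1 genes 3 rose and 3 fell, with 1 to 3 rises and 1 to 3 falls when libraries were left out and 1 higher and 5 lower with library size scaling. SCML1 (11.4 to 15.8 CPM, 0.45), SCMH1 and RNF2 were up, and PCGF5 (2.71 to 1.64 CPM, -0.71), PHC2 and CBX7 were down. RNF2 was called in 7 and CBX7 in 12 of 18 paired alternatives, and RNF2 was not called under the GC offset (0.089, adjusted p = 0.34). KDM6B, a demethylase of H3K27, rose from 48.2 to 65.1 CPM (0.42, SE 0.0554, adjusted p = 7.13e-07). 

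For broad families the shares risen and fallen are given against 7.05% and 6.46% over all genes. Of 506 tested ZNF genes 17 rose and 23 fell (3.36% and 4.55%), but the GC offset gave 9 higher and 59 lower of 495, and 3 and 5 were called without both libraries of number 2. Of 274 solute carriers 20 rose and 29 fell (7.3% and 10.6%), with 26 higher and 22 lower of 272 under the GC offset and 14 higher and 37 lower with library size scaling. Of 537 long intergenic non-coding RNAs 13 rose and 31 fell (2.42% and 5.77%), and of 761 antisense RNAs 11 rose and 25 fell (1.45% and 3.29%), with 10 and 5 falls without both libraries of number 2.

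Against the EED degrader the UNC1999 libraries differed in few genes by group alone (0 higher and 2 lower in edgeR's adjusted test, with 349 and 787 at an unadjusted p under 0.05) and in 179 higher (0.74%) and 522 lower (2.16%) with the pairs kept, of which 8 and 100 differed at least 2-fold. The doses differed, at 1 µM UNC1999 and 2.5 µM UNC6852, and the comparison shares the UNC1999 libraries with the main one. Of the 1705 genes risen over DMSO in the paired model, 150 were higher than with the degrader and 1555 were not called. Of the 1561 fallen genes 415 were lower and 1146 were not called. A gene not called was not shown to be equal. The genes given below are all among those called. ARGFX was at 6.26, 7.30 and 8.27 CPM in the degrader libraries, between the other groups, and the paired change of UNC1999 over the degrader was 0.55 (adjusted p = 0.000322). For SMARCA2 the degrader libraries held 72.1, 67.1 and 70.8 CPM and the difference was 0.36 (adjusted p = 1.45e-05). COL1A1 was at 72.6, 71.5 and 60.3 CPM with the degrader (-0.62, adjusted p = 1.07e-08) and TAGLN at 37.4, 33.9 and 42.6 CPM (-0.96, adjusted p = 2.16e-08). GATA3 was at 1.32, 1.74 and 2.02 CPM (-1.07, adjusted p = 0.00105) and HSPA5 at 625, 952 and 758 CPM (0.21, adjusted p = 0.0462).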

How the data were processed

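The submitters sequenced RNA of 9 samples, 3 per treatment, and per the submitters' processing notes trimmed reads with Trim Galore 0.6.10 and aligned them with HISAT2 2.2.1 to GRCh38. No source used here names the counting tool, the annotation or the strand setting. Per the labels the libraries were depleted of ribosomal RNA, although the molecule field names polyA RNA. The values are whole-number counts per gene and library that the authors deposited without normalization. A further 5 entries without an identifier, at most 0.0103% of a library's counts, were left out, and 29 identifiers stood on more than 1 entry and were kept apart.

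Counts of all 9 libraries were fitted with edgeR 4.0.16 (limma 3.58.1, R 4.3.3): genes kept by filterByExpr on the groups, TMM scaling, robust dispersions, glmQLFit and glmQLFTest, with Benjamini-Hochberg adjustment over the 24182 genes and a false discovery rate of 0.05. The main model had the group alone and 6 residual degrees of freedom, and the paired model added the replicate number as a block and had 4. The labels give the numbers but not what they mark, and the pairing rests on the correlation of each library's deviations from its group mean, above 0.1 for each same-numbered pair of the 9 libraries (0.106 to 0.472, against -0.324 to 0.0748 for different numbers). SEs are the fold change over the square root of F. No 2 libraries of a group agreed within counting noise. By group alone, p-values rest on the spread among libraries of the same group. In the paired model they rest on the spread left once differences between replicate numbers are taken out. Both spreads were estimated from all 9 libraries, which come from 1 line. Totals per library give precise counts for most genes, and under 1 CPM the errors widen.

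The lists and the compared groups were chosen with earlier results of these data known. Genes are named by rule: the 12 largest rises and falls by group alone (mean of at least 1 CPM, no overlap) and in the paired model (at least 5 CPM), the 8 with the highest levels and an absolute change of at least 0.3, the 6 with the smallest p, up to 5 per list, and 4 PRC2 genes. Other list members were named after their values were seen. Alternatives covered scaling, filters, DESeq2 1.42.0, 6 libraries only, a false discovery rate of 0.01, left-out libraries and, chosen after seeing the data, a GC offset from GENCODE 29 transcripts (20526 genes matched). Promoters came from a RefSeq table that matched 10276 of the genes tested. Genes that overlap on either strand cannot be told apart where the strand setting is unknown.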

Additional observations from a re-analysis of the deposited data

How the results depend on the processing

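By group alone the counts of genes higher and lower with UNC1999, 77 and 97 as reported, were 41 and 81 with library size scaling, 356 and 476 with no filter on low counts, 22 and 51 with the 6 libraries only, 408 and 394 with DESeq2, and 15 and 20 at a false discovery rate of 0.01. With the GC offset, chosen after seeing the data, they were 46 and 62 by group alone, where the same genes without it gave 87 and 100. The paired model with the replicate block gave 1705 and 1561. Within it, RLE scaling gave 1905 and 1471, upper-quartile scaling 1328 and 1801, library size scaling 1164 and 1915, a filter of at least 1 CPM in 3 libraries 1700 and 1577, the 6 libraries only 1924 and 1592, DESeq2 1840 and 1222, and a false discovery rate of 0.01 900 and 835. The replicate block with the GC offset gave 1389 and 1354, and 1771 and 1499 for the same genes without it. Leaving out libraries gave 0 to 102 higher and 0 to 158 lower by group alone, and 607 to 1433 and 557 to 1353 with the replicate block. Without both libraries of number 2 the model by group alone called 1 and 0 genes. Against the degrader the replicate block gave 179 higher and 522 lower, library size scaling 0 and 2, and left-out libraries 0 and 0 to 6.

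Of 267 named genes, 168 were called under every one of up to 18 paired alternatives and 3 under none of them. Among those called under only some were RNF2 (7), KRT18 (11), CBX7 (12), FN1 (13), NODAL (14) and MEG3 (16). The direction turned by group alone without UNC1999 replicate 2 for CYP51A1 (range over left-out libraries -0.00582 to 0.368), MSMO1 (-0.0139 to 0.553) and INSIG1 (-0.133 to 0.504). It also turned for 2 uncalled genes, EED (-0.0025 to 0.155 over left-out libraries, -0.0874 with the GC offset by group alone and -0.0866 paired) and EZH1 (-0.143 to 0.0845 over left-out libraries). The cause of these changes was not tested. Depth limits the genes under 1 CPM, whose median SE in the paired model was 0.425.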
